A study of Erigeron canadensis with 32 samples.

Results

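Genes of the gibberellin and brassinosteroid pathways were followed in leaves of *Erigeron canadensis* (horseweed) sprayed with synthetic auxin herbicides. The members were all genes of the draft genome whose best *Arabidopsis thaliana* match carried an annotation naming gibberellin, a GA requiring enzyme, brassinosteroid, brassinazole or the receptor BRI1. This rule used the annotation and no measured value, and it gave 62 genes of the 54498 in the count table, 30 for gibberellin and 32 for brassinosteroid. Genes are given by the symbol of the *A. thaliana* match and the identifier of the draft genome. Several genes share one match, and whether these are separate copies or pieces of one gene in the draft assembly cannot be told from the files.

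Gibberellins are growth hormones that promote stem elongation and leaf expansion. The late steps of their synthesis are run by the GA 20-oxidases and the GA 3-oxidases, the latter making the bioactive forms, and the GA 2-oxidases inactivate them. In *A. thaliana* the bioactive hormone is bound by the GID1 receptors, which leads to the breakdown of the DELLA proteins that hold growth back. Brassinosteroids are steroid hormones of cell elongation. They are perceived at the cell surface by BRI1 and its relatives together with the co-receptor BAK1, and the signal passes through kinases and the BSU1 family of phosphatases to the transcription factors BZR1 and BES1. Auxin, gibberellin and brassinosteroid act on overlapping growth programmes, and the study asked how auxin herbicides affect other hormone pathways.

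All plants were rosettes of a glyphosate-resistant horseweed biotype, grown in a glasshouse and sprayed with water or with 1 of 3 herbicides, namely 2,4-D, dicamba and halauxifen-methyl. 2,4-D is a phenoxyacetic acid, dicamba a benzoic acid and halauxifen-methyl an arylpicolinate, and all act as synthetic auxins. Every spray, water included, held a non-ionic surfactant, and each herbicide was given at its own field rate, so a difference between herbicides is one between treatments as applied. Sampling was done 1 or 6 h after treatment (HAT) on a single leaf per plant, and each of the 8 groups held 4 libraries, each from a separate plant.

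Depth ranged from 12588842 to 29111958 counted reads per library over the 32 libraries. Libraries of one group correlated with each other between 0.89 and 0.982 (Pearson's r of log2 CPM over 17367 genes), and no library was left out. Levels are given as CPM, counts scaled to a common library total, with TMM normalization over all 32 libraries, which corrects for differences in the makeup of the libraries. Marker genes of leaf and other cell types were summed in each library. The 12 genes matching the small subunit of Rubisco and the light-harvesting proteins of mesophyll summed to 10085.5 to 102600.1 CPM per library. The summed markers of guard cells did not pass 7.81 CPM in any library, those of phloem 2.00, those of root 3.41 and those of the shoot meristem 0.668. Such low sums do not show that a cell type was absent from the leaf. At 6 HAT the mesophyll sum was 38120.5 to 67913 CPM after water, 21317 to 32223 after 2,4-D, 14630.5 to 22607 after dicamba and 10085.5 to 25363 after halauxifen-methyl, so that every herbicide library lay below every water library. In water the group median of the sum was 77794.5 CPM at 1 HAT and 49491.5 CPM at 6 HAT. The study itself reported *LHCB3* and *RBCS1B*, which are among these matches, as down-regulated by all herbicides at 6 HAT. The sum is therefore no measure of cell makeup separate from the expression of these genes. The part of the shift after the herbicides in the values below was not tested. In whole leaves, fewer cells of a type and less RNA per cell cannot be told apart.

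Most gibberellin genes had no reads. Of the 30, 17 had 0 counts in all 32 libraries, 7 had few counts and passed the filter on low counts in no comparison with water, and 6 were tested in at least 1 of these comparisons. Of the 32 brassinosteroid genes, 5 had 0 counts throughout, 8 were too low to be tested against water and 19 were tested. Of all genes, 46.9% had 0 counts in every library. Among the steps of gibberellin metabolism, all 4 genes matching *GA2OX2*, both matching *GA20OX2*, both matching *GA3OX2* and the 1 matching *GA3OX3* were at 0 throughout. The only gene matching *GA20OX3* had 2 counts in all. The 4 genes matching *GA3*, the ent-kaurene oxidase of early gibberellin synthesis, had at most 32 counts in any library. So no member of the 20-oxidase or kaurene oxidase step could be tested. *AT5G59845* (HW_53082_g), a second gene of the gibberellin-regulated family, had at most 20 counts in a library. Among the brassinosteroid genes the untested ones included *BR6OX1* (at most 34 counts in a library), both genes matching *BKI1*, an inhibitor of BRI1 (at most 13 counts), and both matching *BES1* (at most 33 counts). At these depths a fall or a small rise in such genes was not detectable. None of the untested genes named here passed 34 counts in any library. How reads that fit several near-identical copies were counted is not given in the sources used here, so the 0 counts of gene families with several copies are uncertain.

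The levels of the tested genes can be set against each other only per length. In water at 1 HAT, the highest levels per kilobase of coding sequence were those of the transcription factor gene *BZR1* (HW_17710_g, 157.6 CPM per kb), the RING-H2 gene *BRH1* (HW_48496_g, 146.1 CPM per kb), the gibberellin-regulated gene *AT5G14920* (HW_15071_g, 100.3 CPM per kb) and the synthesis gene *BR6OX2* (HW_21474_g, 95.3 CPM per kb). The 3-oxidase gene *GA3OX1* (HW_32323_g) stood at 43.7 and the 2-oxidase gene *ATGA2OX1* (HW_14981_g) at 28.7 CPM per kb. The receptor genes *BRL1* and *BRL2* had levels of 3.61 and 4.703 CPM per kb.

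At 1 HAT the members that were called were brassinosteroid genes. The reference for each herbicide was the water group of that sampling time, and a gene was called where the p of edgeR's quasi-likelihood test, adjusted over all genes tested (Benjamini-Hochberg), was 0.05 or less. The 3 comparisons at one time share their 4 water libraries. None of the 5 gibberellin genes tested was called after any herbicide, by this test, by DESeq2 or by edgeR's exact test, and 1, 0 and 1 of them had an unadjusted p under 0.05 after 2,4-D, dicamba and halauxifen-methyl. Of the 17 brassinosteroid genes tested, 1 was called with 2,4-D, 2 with dicamba and 0 with halauxifen-methyl. Over all genes, 1.82% were called with 2,4-D, 2.42% with dicamba and 0.176% with halauxifen-methyl, so a count of 1 or 2 in 17 rests on single genes. Leaving out 1 library at a time gave 1 to 3 calls after 2,4-D (3 without water replicate 4, 2 without 2,4-D replicate 2) and 0 to 2 after dicamba, where water replicate 1, 2 or 3 or dicamba replicate 1, 2 or 4 left 0 and water replicate 4 left 1. An unadjusted p under 0.05 was found in 5 of the 17 with 2,4-D, in 8 with dicamba and in 3 with halauxifen-methyl. DESeq2 called 5, 5 and 1 of them and the exact test 3, 4 and 1, so the low counts of calls depend on the test. The 1 gene called by both with halauxifen-methyl was *BRH1* (HW_48496_g), which the main test also called without water replicate 4.

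The early calls were in a pair of genes matching *BRH1*, which codes for a RING-H2 protein whose transcript responds to brassinosteroid in *A. thaliana*. *BRH1* (HW_41642_g, from 1172 to 1557 on its contig) was measured at 32.9, 24.6, 12.1 and 18.2 CPM after water. Its levels were 4.31, 7.03, 4.03 and 4.13 CPM after 2,4-D, 1.12, 7.75, 4.59 and 5.33 CPM after dicamba and 16.3, 18.2, 10.8 and 10.5 CPM after halauxifen-methyl. The 2,4-D and dicamba libraries all lay below the water libraries, while the halauxifen-methyl libraries overlapped them. The log2 fold change was -2.15 ± 0.35 (± standard error, SE) after 2,4-D (adjusted p = 0.0125) and -2.22 ± 0.51 after dicamba (adjusted p = 0.0483), against -0.63 ± 0.33 after halauxifen-methyl (adjusted p = 1). The dicamba call was lost when any 1 of the 8 libraries was left out (adjusted p up to 0.142), while the 2,4-D call was kept each time.

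A second gene, *BRH1* (HW_48496_g, from 2372 to 2854 on its contig), was measured at 55.7, 59.3, 71.8 and 95.5 CPM after water and 127.5, 146.6, 137.2 and 152.6 CPM after dicamba at 1 HAT. It had 140.7, 108.4, 108.2 and 139.5 CPM after 2,4-D and 183.1, 128.4, 188.3 and 152.2 CPM after halauxifen-methyl. All 12 herbicide libraries lay above all 4 water libraries. It was called after dicamba, with a log2 fold change of 1.00 ± 0.20 (adjusted p = 0.0252). The changes of 0.84 ± 0.20 after 2,4-D (adjusted p = 0.0798) and 1.22 ± 0.22 after halauxifen-methyl (adjusted p = 0.0919) did not pass the test. Without water replicate 1, 2 or 3 or dicamba replicate 1, 2 or 4 the dicamba call was lost (adjusted p up to 0.0943).

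At 6 HAT the tested gibberellin genes were mostly higher after all herbicides. After 2,4-D, 4 of 5 tested genes were called higher and 1 lower, where 10.3% of all genes tested were called higher and 9.41% lower. After dicamba, 3 of 5 were higher and none lower (5.64% and 3.96% of all genes), and after halauxifen-methyl 3 of 4 were higher and none lower (8.55% and 6.13% of all genes). The median log2 fold change of the tested members was 2.77, 2.53 and 1.66 after 2,4-D, dicamba and halauxifen-methyl, beside 0.02, 0.06 and 0.05 over all genes tested. These medians describe a handful of genes, and 3 of them passed the filter on low counts only with the reads of 1 group. *GA3OX1* (HW_38092_g) and *ATGA2OX1* did so through their herbicide libraries and *GA2OX8* (HW_33615_g) through its water libraries, so the counts are no support for a response of the pathway. Without water replicate 4, only 1 gene was called after halauxifen-methyl. The summed mesophyll markers were lower in the same herbicide libraries, and their part in these results was not tested.

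**Figure D1:**
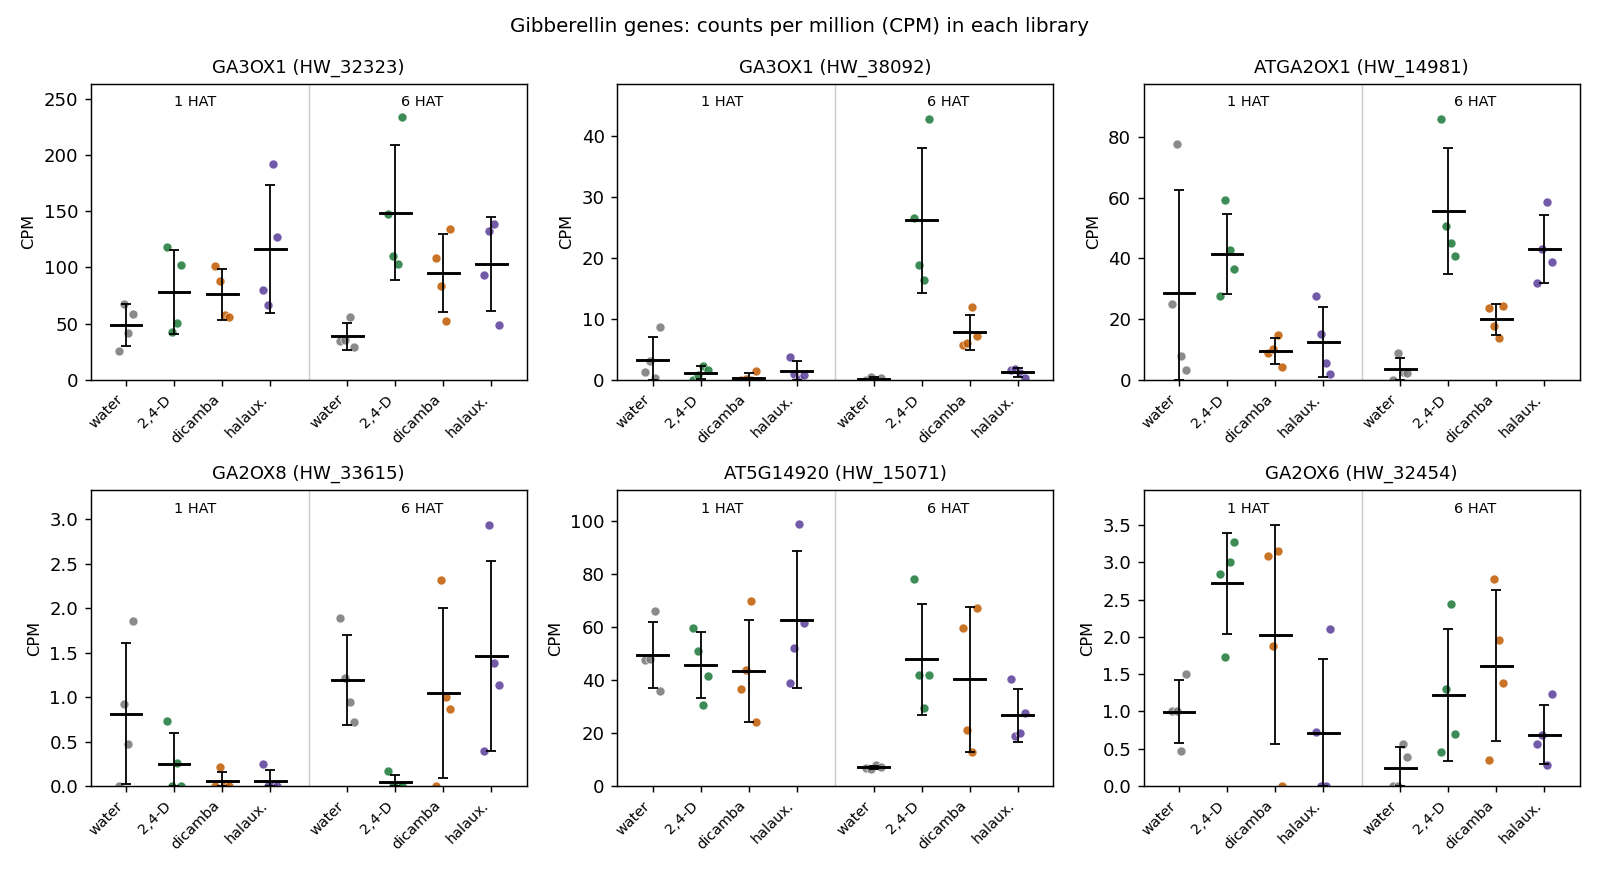
Levels of 6 gibberellin genes in all 32 libraries. Each point is 1 library (CPM on the vertical axis, from 0), with the treatments at 1 HAT on the left and at 6 HAT on the right of each panel. Lines are group means and bars are SD (n = 4, drawn down to 0 at most), and halaux. stands for halauxifen-methyl. *GA3OX1* (HW_38092_g) is at 16.3 to 42.8 CPM after 2,4-D at 6 HAT and at 0 to 0.495 CPM after water, and the water libraries of *AT5G14920* at 6 HAT lie below all others of that time.

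Both 3-oxidase genes with reads were higher at 6 HAT after 2,4-D and dicamba, and the more abundant also after halauxifen-methyl. *GA3OX1* (HW_32323_g, from 23174 to 24492 on its contig) was the more abundant of the pair and was measured at 34.1, 35.5, 56.1 and 28.8 CPM after water at 6 HAT. After 2,4-D it was at 147.3, 109.9, 103.2 and 233.5 CPM, after dicamba at 108.7, 83.7, 52.5 and 134.0 CPM and after halauxifen-methyl at 93.03, 132.6, 138.1 and 48.6 CPM. The 2,4-D libraries all lay above the water libraries, and 1 library each of dicamba and halauxifen-methyl fell within the range of water. Its log2 fold changes were 1.95 ± 0.29 (adjusted p = 0.000504), 1.31 ± 0.31 (adjusted p = 0.0187) and 1.40 ± 0.32 (adjusted p = 0.0156). At 1 HAT it stood at 25.7 to 67.6 CPM after water and 66.5 to 191.9 CPM after halauxifen-methyl, with a log2 fold change of 1.28 ± 0.38 that was not called (adjusted p = 0.842). The change of the herbicide effect from 1 to 6 HAT was not called for this gene with any herbicide. The dicamba call was lost without water replicate 2 or 4 or dicamba replicate 1 or 4 (adjusted p up to 0.0652), and the halauxifen-methyl call without water replicate 2 or 4 (adjusted p up to 0.0522).

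The other 3-oxidase gene, *GA3OX1* (HW_38092_g, from 5208 to 7117 on its contig), had the largest log2 fold change of the members. At 6 HAT it was measured at 0, 0.495, 0 and 0.276 CPM after water, from 0, 9, 0 and 5 counts. After 2,4-D it reached 26.5, 18.9, 16.3 and 42.8 CPM and after dicamba 5.73, 6.05, 12 and 7.25 CPM. After halauxifen-methyl it was at 1.65, 1.75, 1.17 and 0.247 CPM. All 2,4-D libraries lay above all dicamba libraries, and these above all halauxifen-methyl libraries. Against water the log2 fold change was 7.01 ± 0.74 after 2,4-D (adjusted p = 4.64e-05) and 5.29 ± 1.07 after dicamba (adjusted p = 0.00851). Both calls held when any 1 library was left out. The gene passed the filter on low counts only through its herbicide libraries, so it could be tested only where it was high in them. With halauxifen-methyl the gene did not pass the filter, and the difference of 1.01 CPM in the means had p = 0.0857 in a two-sided exact permutation test (4 against 4 libraries). The ratio of the group means was 135.5 after 2,4-D and 40.2 after dicamba, and with so few reads in water the size of these folds is imprecise. At 1 HAT the gene was at 1.24, 3.01, 0.285 and 8.72 CPM after water, so that the water leaves themselves differed widely. It was at 0, 0.742, 2.33 and 1.64 CPM after 2,4-D, 0, 0.0538, 0 and 1.41 CPM after dicamba and 3.796, 0.937, 0.0567 and 0.748 CPM after halauxifen-methyl at 1 HAT, which overlapped water in each case.

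The 2-oxidase genes, whose enzymes inactivate gibberellin, did not move together. *ATGA2OX1* (HW_14981_g, from 2330 to 4432 on its contig) was measured at 0, 8.96, 2.63 and 2.27 CPM after water at 6 HAT. It was at 86.1, 50.6, 45.2 and 40.8 CPM after 2,4-D, 23.8, 17.7, 13.9 and 24.3 CPM after dicamba and 31.9, 43.2, 58.5 and 38.8 CPM after halauxifen-methyl. Every herbicide library lay above every water library. The gene was called after 2,4-D, with a log2 fold change of 4.01 ± 0.79 (adjusted p = 0.00372), and after halauxifen-methyl, with 3.63 ± 0.86 (adjusted p = 0.018), but not after dicamba, with 2.55 ± 0.90 (adjusted p = 0.119). The halauxifen-methyl call was lost without water replicate 3 or 4 (adjusted p up to 0.0645). At 6 HAT the gene passed the filter on low counts only through its herbicide libraries. In water at 1 HAT the 4 leaves had 24.8, 77.9, 7.98 and 3.36 CPM, and the change of water from 1 to 6 HAT, a log2 value of -3.08 ± 1.13, did not pass the test (adjusted p = 0.103).

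A 2-oxidase gene of low level went the other way after 2,4-D. *GA2OX8* (HW_33615_g, from 23996 to 24645 on its contig) had 1.89, 1.21, 0.9397 and 0.718 CPM after water at 6 HAT and 0.171, 0, 0 and 0 CPM after 2,4-D, where no library had over 3 counts. Set against the limit of 3 counts per library, its mean was at least 7.59-fold lower after 2,4-D. It had 0, 2.32, 1.005 and 0.863 CPM after dicamba and 0.391, 2.94, 1.38 and 1.14 CPM after halauxifen-methyl, both overlapping water. It was called lower after 2,4-D (adjusted p = 0.0424), a gene that passed the filter only through its water libraries of 13 to 34 counts. The call was lost without water replicate 2, 3 or 4 or 2,4-D replicate 2, 3 or 4 (adjusted p up to 0.128). *GA2OX6* (HW_32454_g) had 1.01, 1.003, 0.475 and 1.501 CPM after water and 2.85, 1.73, 3.01 and 3.27 CPM after 2,4-D at 1 HAT, with a log2 fold change of 1.45 ± 0.62 that did not pass the test (adjusted p = 0.385). At 6 HAT it was too low to be tested against water. A further gene matching *GA2OX8* (HW_9587_g) did not pass 1.32 CPM in any library and was tested in no comparison with water.

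The gene matching *AT5G14920*, whose product belongs to the gibberellin-regulated (GASA) family of small secreted proteins, was called after all herbicides. HW_15071_g (from 4051 to 6162 on its contig) was measured at 6.94, 6.27, 7.83 and 7.07 CPM after water at 6 HAT. It was at 78.1, 41.9, 29.4 and 42.02 CPM after 2,4-D, 59.6, 21.2, 12.7 and 67.3 CPM after dicamba and 40.2, 18.8, 19.9 and 27.4 CPM after halauxifen-methyl, all above water. Its log2 fold changes were 2.77 ± 0.28 (adjusted p = 3.5e-05), 2.53 ± 0.48 (adjusted p = 0.0057) and 1.92 ± 0.28 (adjusted p = 0.00161), and each held when any 1 library was left out. The water leaves differed between the time points. At 1 HAT the water leaves had 47.5, 47.9, 66.1 and 35.8 CPM, and the gene fell by 2.83 on the log2 scale (SE 0.23, adjusted p = 3.19e-05) in water from 1 to 6 HAT. Means were 45.6 ± 12.5 CPM at 1 HAT and 47.9 ± 21 CPM at 6 HAT after 2,4-D, 43.5 ± 19.2 and 40.2 ± 27.3 CPM after dicamba and 62.8 ± 25.8 and 26.6 ± 9.85 CPM after halauxifen-methyl (mean ± SD, n = 4).

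Brassinosteroid genes at 6 HAT went in both directions. The called synthesis and BRI1-type receptor genes were lower, and the called phosphatase, transcription factor and *BRH1* genes were higher. Most of these classes held a single called gene, and other tested phosphatase, *BZR1* and *BRH1* genes were not called. The direction is therefore that of the called genes and not of a class. After 2,4-D, 3 of 18 tested genes were called higher and 4 lower, beside 10.3% and 9.41% of all genes. After dicamba 3 of 18 were higher and 2 lower (5.64% and 3.96% of all genes), and after halauxifen-methyl 5 of 19 were higher and 2 lower (8.55% and 6.13% of all genes). The dicamba count of 5 fell to 2 without water replicate 2, 3 or 4 or dicamba replicate 4 and to 3 without dicamba replicate 1 or 2. The median log2 fold change of the tested members was -0.03, 0.30 and 0.73 after 2,4-D, dicamba and halauxifen-methyl, beside 0.02, 0.06 and 0.05 over all genes. As for the gibberellin genes, the lower mesophyll marker sum of the same libraries stands beside these results, and its part in them was not tested.

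**Figure D2:**
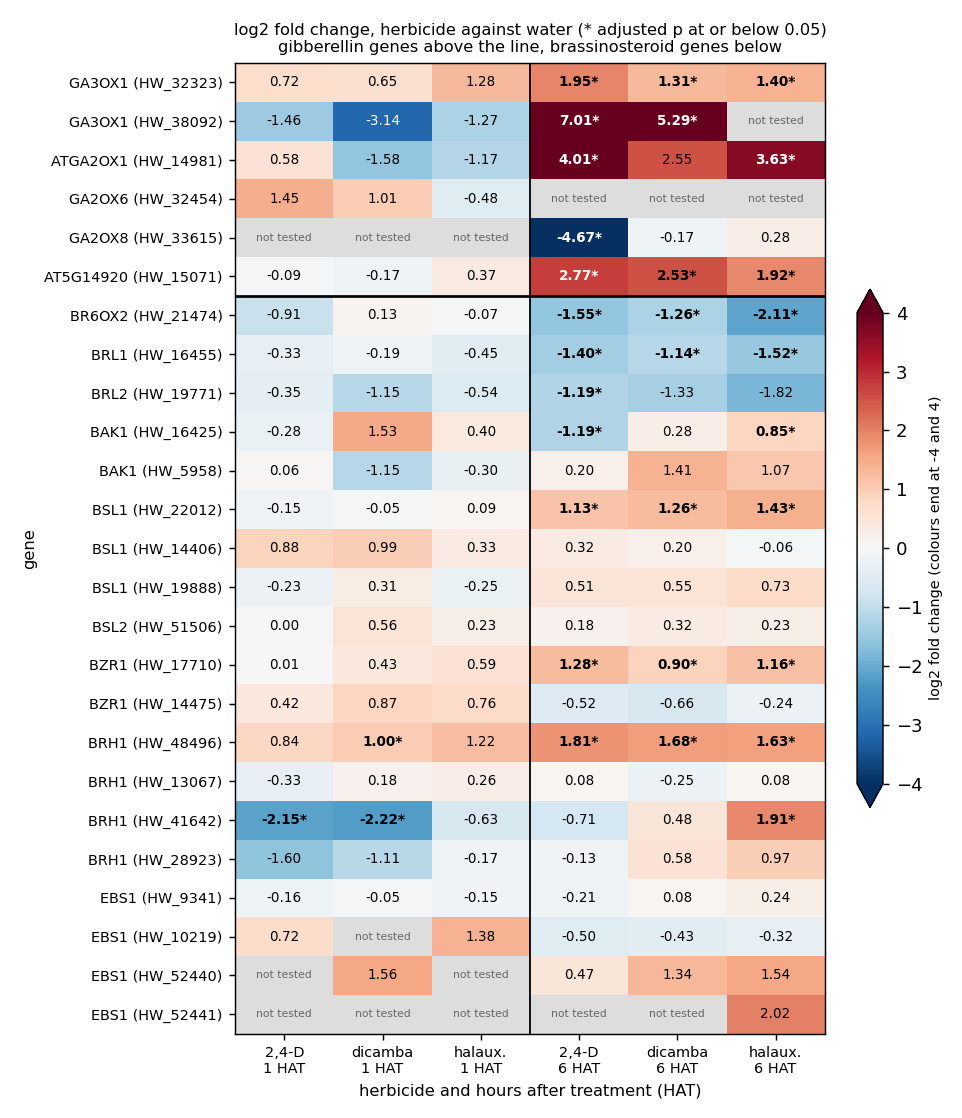
Log2 fold change of every member tested in at least 1 comparison with water. Rows are genes, gibberellin above the line and brassinosteroid below, and columns are the herbicides at 1 and 6 HAT. Red is higher and blue lower than water, with colours ending at -4 and 4, asterisks mark adjusted p at or below 0.05 (edgeR), and grey cells were not tested. Asterisks crowd into the 3 columns of 6 HAT, and *BR6OX2* and *BRL1* are blue there after all herbicides while *BSL1* (HW_22012_g), *BZR1* (HW_17710_g) and *BRH1* (HW_48496_g) are red.

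The gene for the last step of brassinosteroid synthesis was lower. *BR6OX2* (HW_21474_g, from 6179 to 10326 on its contig) matches the oxidase that makes brassinolide and its precursor castasterone in *A. thaliana*. At 6 HAT it was measured at 181.9, 209.0, 165.3 and 174.1 CPM after water. It was at 55.3, 58.4, 62.5 and 71.1 CPM after 2,4-D, 65.8, 120.3, 32.4 and 81.2 CPM after dicamba and 36.99, 45.1, 43.6 and 43.8 CPM after halauxifen-methyl, and every herbicide library lay below every water library. The log2 fold changes were -1.55 ± 0.13 (adjusted p = 7.89e-06), -1.26 ± 0.33 (adjusted p = 0.0312) and -2.11 ± 0.15 (adjusted p = 2.63e-05). At 1 HAT the 2,4-D libraries were already below water (47.99 to 95.6 against 98.6 to 168.4 CPM), but the log2 fold change of -0.91 ± 0.25 did not pass the test (adjusted p = 0.135). The dicamba call was lost without any 1 of the 4 water libraries or dicamba replicate 1 or 4 (adjusted p up to 0.0887).

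Receptor genes of the BRI1 family were lower as well. *BRL1* (HW_16455_g, from 3474 to 6986 on its contig), which matches a close relative of BRI1 that binds brassinosteroid in *A. thaliana*, had 20.3, 15.5, 23.1 and 21.6 CPM after water at 6 HAT. It had 8.02, 6.695, 5.65 and 9.996 CPM after 2,4-D, 12.1, 6.14, 7.03 and 10.9 CPM after dicamba and 8.34, 4.195, 5.11 and 10.3 CPM after halauxifen-methyl. No herbicide library reached the range of water. The log2 fold changes were -1.40 ± 0.25 (adjusted p = 0.00184), -1.14 ± 0.31 (adjusted p = 0.0382) and -1.52 ± 0.33 (adjusted p = 0.0124), of which that after dicamba was lost without water replicate 2, 3 or 4 or dicamba replicate 2, 3 or 4 (adjusted p up to 0.129). *BRL2* (HW_19771_g, from 15397 to 22753 on its contig), a relative with roles in leaf vein patterning in *A. thaliana*, had 9.22, 5.06, 7.52 and 8.84 CPM after water and 3.92, 4.02, 2.49 and 2.89 CPM after 2,4-D. Its log2 fold change of -1.19 ± 0.38 after 2,4-D was just inside the threshold (adjusted p = 0.0499), and the call was lost without any 1 library other than water replicate 1 (adjusted p up to 0.142). The larger changes of -1.33 ± 0.49 after dicamba and -1.82 ± 0.78 after halauxifen-methyl were not called (adjusted p = 0.133 and 0.163).

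**Figure D3:**
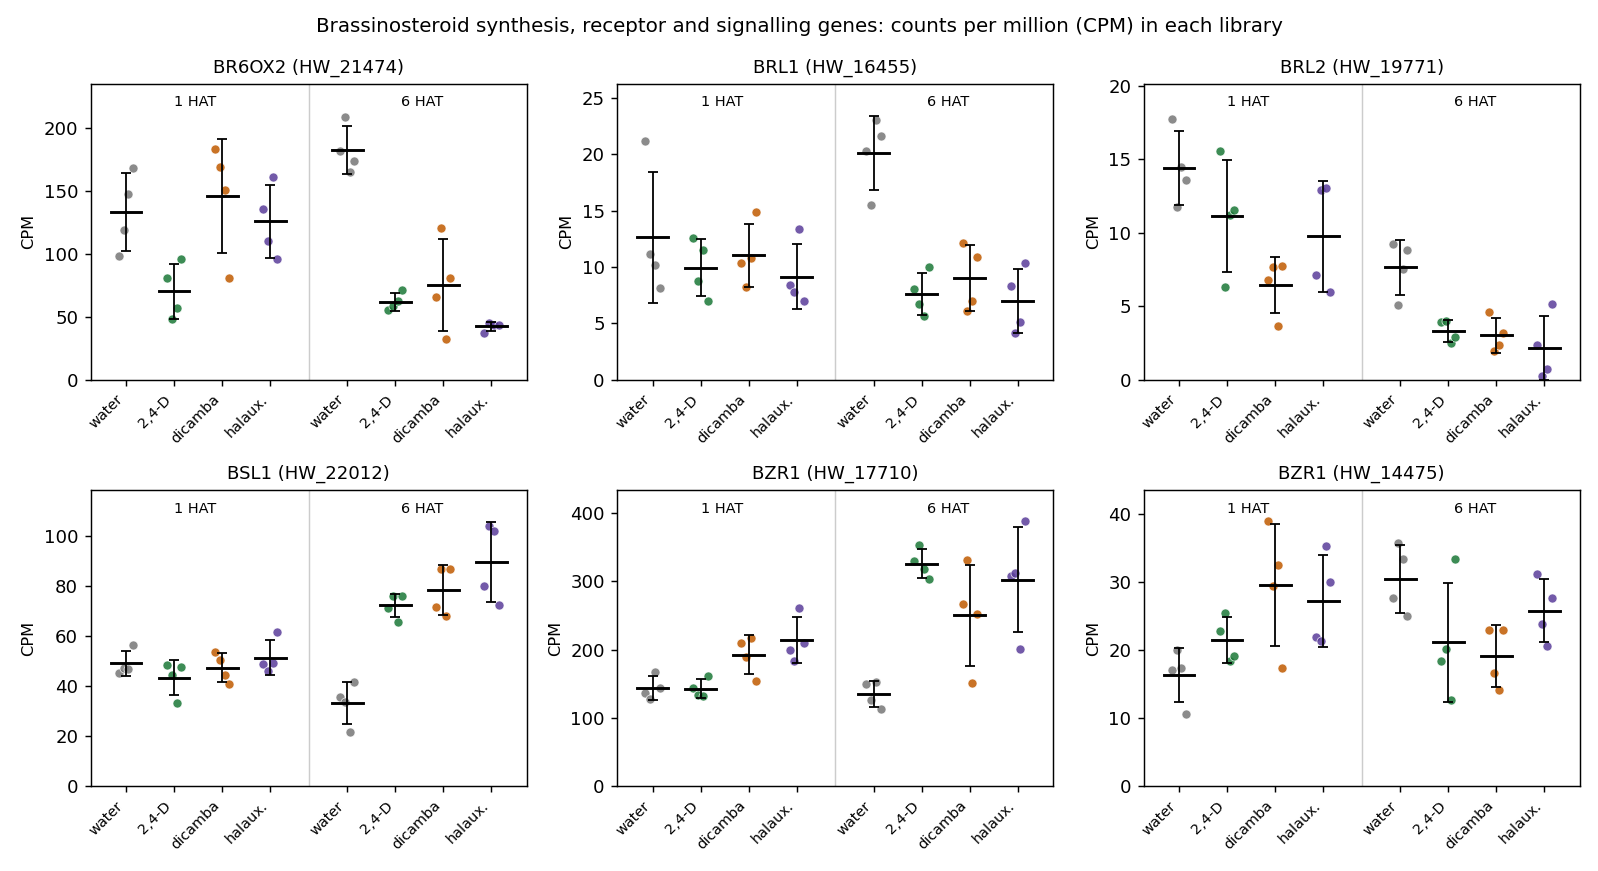
Levels of 6 genes of brassinosteroid synthesis, perception and signalling in all 32 libraries. Points, lines and bars are as in the plot of the gibberellin genes (CPM of 1 library, group mean, SD with n = 4). At 6 HAT the herbicide libraries of *BR6OX2* and *BRL1* lie below all water libraries, and those of *BSL1* (HW_22012_g) lie above them. *BZR1* (HW_17710_g) is at 151.5 CPM or more in every herbicide library of that time and at up to 152.5 CPM after water, so that dicamba overlaps water.

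A co-receptor gene matching *BAK1* was lower after 2,4-D than after the other herbicides. *BAK1* (HW_16425_g, from 11547 to 18626 on its contig), a receptor kinase that also serves immune receptors, had 38.3, 38.7, 32.6 and 23.4 CPM after water at 6 HAT. It was at 12.6, 14.2, 12.7 and 18.6 CPM after 2,4-D, below every water library, and at 37.5, 70.9, 71.4 and 61.02 CPM after halauxifen-methyl, where 1 of the 4 libraries fell within the range of water. After dicamba it was at 22.9, 51.4, 51.7 and 34.1 CPM, overlapping water. The log2 fold change was -1.19 ± 0.22 after 2,4-D (adjusted p = 0.00252), 0.85 ± 0.24 after halauxifen-methyl (adjusted p = 0.0421) and 0.28 ± 0.28 after dicamba (adjusted p = 0.695). The rise after halauxifen-methyl was lost without water replicate 2, 3 or 4 or halauxifen-methyl replicate 2, 3 or 4 (adjusted p up to 0.114). Compared directly, 2,4-D was lower than halauxifen-methyl by a log2 value of -2.05 ± 0.22 (adjusted p = 0.000396) and lower than dicamba by -1.48 ± 0.27 (adjusted p = 0.0405), while dicamba and halauxifen-methyl differed by -0.55 ± 0.30 and were not called (adjusted p = 0.635). At 1 HAT its largest difference from water was 1.53 ± 0.43 on the log2 scale after dicamba, which was not called (adjusted p = 0.104). At 6 HAT a second gene matching *BAK1* (HW_5958_g) had 0 to 3.59 CPM after water, 1.55 to 3.82 CPM after 2,4-D, 2.03 to 7.87 CPM after dicamba and 3.56 to 5.32 CPM after halauxifen-methyl and was called in no comparison.

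Downstream of the receptors, 1 phosphatase gene and 1 transcription factor gene were higher after all herbicides. *BSL1* (HW_22012_g, from 873 to 6018 on its contig) matches a phosphatase of the BSU1 family, which acts between the receptor and the BZR1 factors. At 6 HAT it had 35.6, 33.6, 21.5 and 41.5 CPM after water. It had 71.3, 75.7, 65.7 and 75.7 CPM after 2,4-D, 71.6, 86.8, 67.7 and 86.8 CPM after dicamba and 79.96, 103.7, 102.0 and 72.1 CPM after halauxifen-methyl, all above water. The log2 fold changes of 1.13 ± 0.18, 1.26 ± 0.22 and 1.43 ± 0.21 (adjusted p = 0.00101, 0.00361 and 0.0017) held when any 1 library was left out. Its coding length of 1356 bases is less than that of *BSL1* (HW_14406_g, 2907 bases) and *BSL2* (HW_51506_g, 2982 bases). Whether it is a partial gene model was not tested. Those genes and *BSL1* (HW_19888_g) were not called, with log2 fold changes between -0.06 and 0.73 against water at 6 HAT. At 1 HAT the 2,4-D and dicamba libraries of *BSL1* (HW_14406_g) all lay above the water libraries, though the gene was not called. Its means were 16.3 CPM after water, 29.6 CPM after 2,4-D and 32.4 CPM after dicamba, and the halauxifen-methyl libraries overlapped water.

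*BZR1* (HW_17710_g, from 3849 to 5320 on its contig) matches the transcription factor that carries the brassinosteroid signal to its target genes. It was measured at 148.9, 126.2, 152.5 and 112.9 CPM after water at 6 HAT. It was at 329.1, 353.4, 317.4 and 303.8 CPM after 2,4-D and 307.3, 312.9, 201.1 and 388.1 CPM after halauxifen-methyl, all above water, and at 266.3, 330.9, 151.5 and 251.5 CPM after dicamba, where 1 library fell within the range of water. Against water, log2 fold changes were 1.28 ± 0.14 (adjusted p = 5.35e-05), 0.90 ± 0.24 (adjusted p = 0.0364) and 1.16 ± 0.22 (adjusted p = 0.00623) after 2,4-D, dicamba and halauxifen-methyl. The dicamba call was lost without water replicate 2, 3 or 4 or dicamba replicate 1, 2 or 4 (adjusted p up to 0.11). The other gene matching *BZR1* (HW_14475_g) was not called, with 25.1 to 35.8 CPM after water, 12.7 to 33.4 CPM after 2,4-D, 14.1 to 22.99 CPM after dicamba and 20.6 to 31.2 CPM after halauxifen-methyl. All of its dicamba libraries lay below water, while those of the other herbicides overlapped it. In water it was higher at 6 than at 1 HAT, by a log2 value of 0.88 ± 0.24 (adjusted p = 0.0308).

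Of the 4 genes matching *BRH1*, 1 was called after all herbicides at 6 HAT, 1 after halauxifen-methyl alone and 2 after none. HW_48496_g had 66.2, 76.3, 74.05 and 86.4 CPM after water. It had 297.1, 234.2, 257.7 and 268.7 CPM after 2,4-D, 265.0, 221.9, 204.3 and 267.7 CPM after dicamba and 252.3, 184.7, 277.4 and 224.0 CPM after halauxifen-methyl, at least 184.7 CPM in every herbicide library and at most 86.4 CPM in every water library. The log2 fold changes were 1.81 ± 0.12, 1.68 ± 0.17 and 1.63 ± 0.17 (adjusted p = 1.71e-06, 9.63e-05 and 0.000178), and each held when any 1 library was left out. HW_41642_g, which had been lower after 2,4-D and dicamba at 1 HAT, had 9.88, 8.19, 9.52 and 10.1 CPM after water at 6 HAT. It had 7.68, 6.48, 3.04 and 5.67 CPM after 2,4-D and 11.2, 3.41, 16.6 and 21.1 CPM after dicamba, with log2 fold changes of -0.71 ± 0.34 and 0.48 ± 0.47 that did not pass the test. The 2,4-D libraries all lay below water, and the dicamba libraries overlapped it. After halauxifen-methyl it had 29.9, 41.8, 35.6 and 34.6 CPM, all above water, with a log2 fold change of 1.91 ± 0.18 (adjusted p = 0.000137) that held when any 1 library was left out. Its water libraries were themselves lower at 6 than at 1 HAT, by a log2 value of -1.24 ± 0.32 (adjusted p = 0.0224). HW_28923_g and HW_13067_g were not called in any comparison, with levels of 2.61 to 16.04 and 9.27 to 18.6 CPM after water at 6 HAT.

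**Figure D4:**
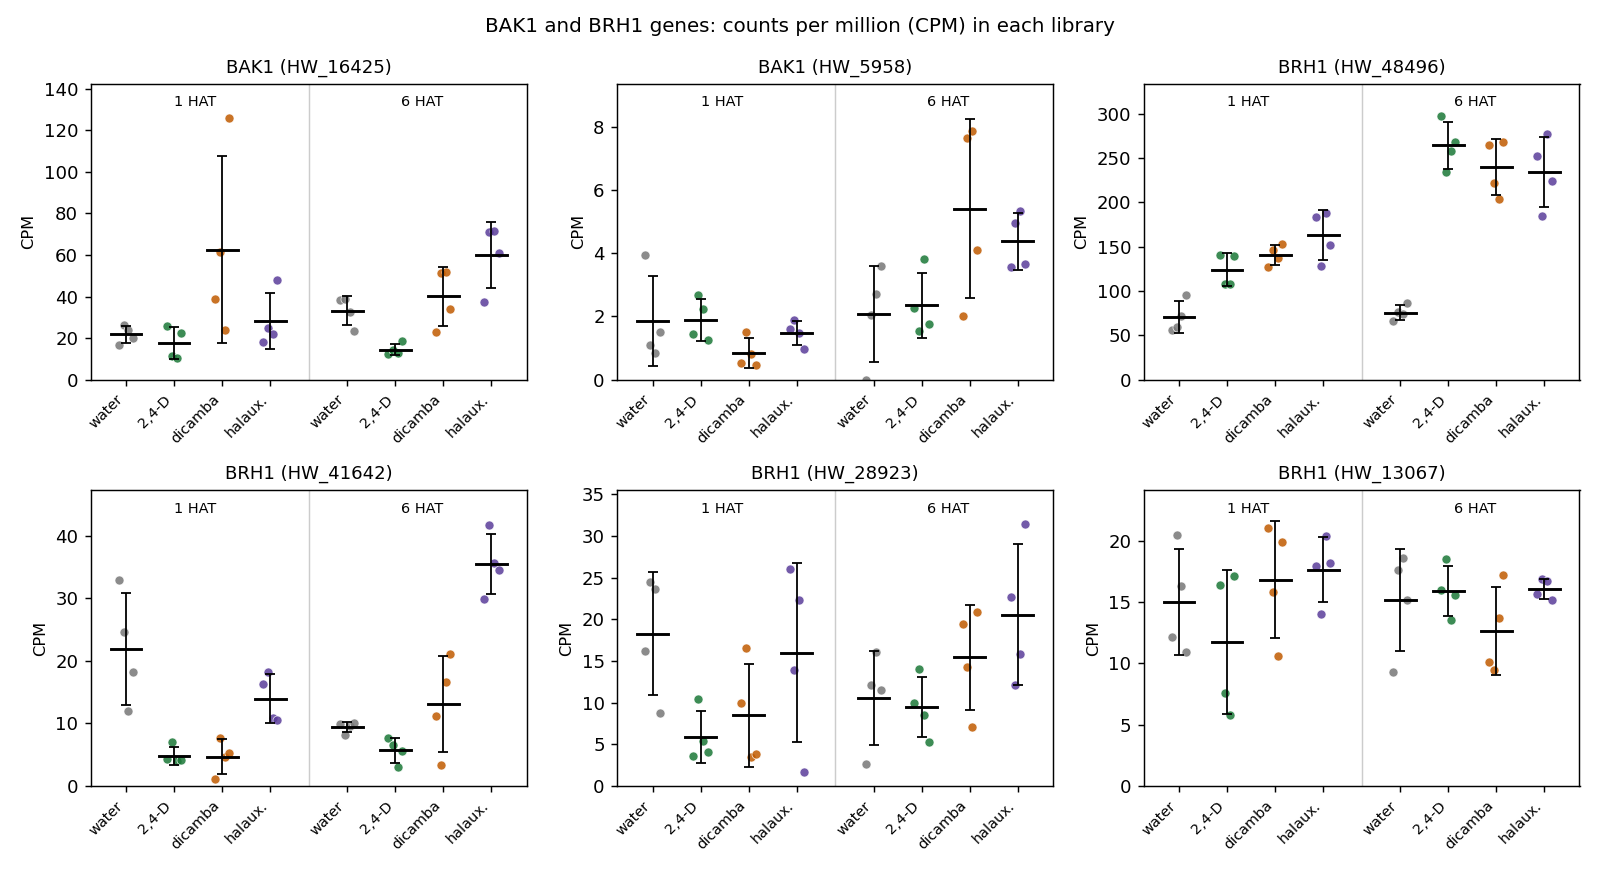
Levels of the 2 tested genes matching *BAK1* and the 4 matching *BRH1* in all 32 libraries. Points, lines and bars are as in the plot of the gibberellin genes (CPM of 1 library, group mean, SD with n = 4). At 6 HAT *BAK1* (HW_16425_g) is lowest after 2,4-D and *BRH1* (HW_41642_g) is highest after halauxifen-methyl, at 29.9 to 41.8 CPM, while *BRH1* (HW_48496_g) is high after all herbicides.

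The genes matching *EBS1*, which in *A. thaliana* takes part in the quality control of BRI1 folding, were not called. Of 5 genes, 4 were tested and none passed the test in any comparison. The most abundant (HW_9341_g) had 45.6 to 50.6 CPM after water, 38.8 to 48.1 CPM after 2,4-D, 34.7 to 59.5 CPM after dicamba and 37.8 to 67.2 CPM after halauxifen-methyl at 6 HAT, with log2 fold changes between -0.21 and 0.24. The other 3 tested genes had 1.55 to 3.61, 0.376 to 1.65 and 0 to 0.6598 CPM after water at 6 HAT. HW_52440_g and HW_52441_g lie next to each other on 1 contig and strand, and whether they are pieces of 1 gene was not tested.

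Pairs of herbicides were compared directly at 6 HAT. Over all genes, 0.519% were called in the pair of 2,4-D and dicamba, 8.04% in that of halauxifen-methyl and 2,4-D and 0.489% in that of dicamba and halauxifen-methyl. Between 2,4-D and dicamba, 1 of 5 gibberellin genes and 1 of 19 brassinosteroid genes were called, namely *ATGA2OX1*, higher after 2,4-D by a log2 value of 1.46 ± 0.26 (adjusted p = 0.0374), and *BAK1* (HW_16425_g, above). Between 2,4-D and halauxifen-methyl, 1 of 5 gibberellin genes was called, *GA3OX1* (HW_38092_g), higher after 2,4-D by 4.41 ± 0.51 (adjusted p = 0.000529). Of 19 brassinosteroid genes 3 were called in that pair, 1 of them *BAK1* as given above. *BR6OX2* was higher after 2,4-D than after halauxifen-methyl, by a log2 value of 0.54 ± 0.13 (adjusted p = 0.0307). *BRH1* (HW_41642_g) was lower after 2,4-D by a log2 value of -2.63 ± 0.26 (adjusted p = 0.000234).

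No member was called between dicamba and halauxifen-methyl with edgeR's quasi-likelihood test, where 2 of 6 gibberellin genes and 2 of 19 brassinosteroid genes had an unadjusted p under 0.05. For *GA3OX1* (HW_38092_g) the log2 difference was 2.71 ± 0.57, higher after dicamba (adjusted p = 0.0781), and for *ATGA2OX1* it was -1.08 ± 0.24 (adjusted p = 0.106). DESeq2 and edgeR's exact test each called both of these genes and no brassinosteroid gene. The more abundant *GA3OX1* gene (HW_32323_g) was higher after 2,4-D by a log2 value of 0.63 ± 0.31 than after dicamba and of 0.53 ± 0.33 than after halauxifen-methyl, and the latter pair differed by -0.08 ± 0.35, none of which passed the test. With SE of 0.31 to 0.35, moderate differences between the herbicides could not be detected in this gene.

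Some members also differed over time in water. In water from 1 to 6 HAT, 1 of 4 gibberellin genes (*AT5G14920*, lower) and 2 of 18 brassinosteroid genes (*BZR1* HW_14475_g, higher, and *BRH1* HW_41642_g, lower) were called, beside 13.9% of all genes tested. Time after spraying and time of day cannot be told apart in this comparison. The change of the herbicide effect between 1 and 6 HAT was tested as an interaction in 16 libraries. With 2,4-D it was called in 2 of 6 gibberellin and 3 of 18 brassinosteroid genes (9.5% of all genes), with dicamba in 2 of 6 and 3 of 19 (5.17%) and with halauxifen-methyl in 1 of 7 and 3 of 19 (5.49%). *AT5G14920* and *BSL1* (HW_22012_g) were called with every herbicide, the interaction of *BSL1* being 1.30 ± 0.26, 1.32 ± 0.28 and 1.34 ± 0.27 on the log2 scale (adjusted p = 0.00284, 0.00658 and 0.00579).

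Other genes of the 2 pathways, which the annotation words did not pick up, were listed by their *A. thaliana* match and are given as counts with the called genes. Among 25 genes for the gibberellin receptor, the DELLA proteins and their F-box partners, 7 to 9 were tested per comparison. At 6 HAT, 1 was higher and 1 lower after 2,4-D, and 0 were higher and 1 lower after dicamba and after halauxifen-methyl. Over all genes 10.3% were higher and 9.41% lower with 2,4-D, 5.64% higher and 3.96% lower with dicamba and 8.55% higher and 6.13% lower with halauxifen-methyl, so 1 called gene in 7 or 8 is near those shares. The lower one was each time *RGA1* (HW_1378_g), a DELLA protein, with 66.4 ± 11.3 CPM after water, 27.8 ± 3.41 CPM after 2,4-D, 30.8 ± 7.56 CPM after dicamba and 41.4 ± 2.94 CPM after halauxifen-methyl (mean ± SD, n = 4) and log2 fold changes of -1.25 ± 0.17, -1.10 ± 0.23 and -0.69 ± 0.17 (adjusted p = 0.000246, 0.00885 and 0.0183). The higher one was *SLY1* (HW_39283_g), the F-box protein that marks DELLA proteins for breakdown, with a log2 fold change of 1.49 ± 0.27 (adjusted p = 0.00224). In water it was lower at 6 than at 1 HAT, with 5.47 ± 0.646 against 20.4 ± 2.61 CPM and a log2 value of -1.92 ± 0.26 (adjusted p = 0.000744), and after 2,4-D it was at 10.8 ± 3.15 CPM at 1 HAT and 15.4 ± 3.85 CPM at 6 HAT. At 1 HAT 1 gene was higher after 2,4-D and after dicamba, *GAI* (HW_19041_g), another DELLA gene. Its log2 fold changes were 1.04 ± 0.18 and 1.15 ± 0.26 (adjusted p = 0.018 and 0.0472). It had 63.8 to 91.2 CPM after water, 138.9 to 208.7 CPM after 2,4-D and 87.3 to 221.5 CPM after dicamba, which overlapped water. Leaving out single libraries was not looked at for *GAI*. Of 19 further genes of gibberellin synthesis and turnover, 5 were tested. The only one called was *GA2* (HW_36038_g), which codes for ent-kaurene synthase of early gibberellin synthesis. It was lower at 6 HAT after 2,4-D and halauxifen-methyl, with log2 fold changes of -1.25 ± 0.26 and -1.31 ± 0.30 (adjusted p = 0.00479 and 0.0153). Its levels at 6 HAT were 107.6 to 281.5 CPM after water, 74.7 to 118.0 CPM after 2,4-D and 58.5 to 111.6 CPM after halauxifen-methyl. Both herbicide groups thus overlapped water. Single plants of one group differed widely at 1 HAT, with 42.8, 60.2, 66.2 and 0 CPM after water. After 2,4-D at 1 HAT the gene was at 0.121, 47.9, 0 and 0.078 CPM.

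On the brassinosteroid side, 15 of 31 further genes of synthesis and inactivation were tested. At 6 HAT, 2 were higher and 3 lower after 2,4-D, and 1 was higher and 1 lower after dicamba and after halauxifen-methyl, again beside those shares over all genes. *DWF1* (HW_21358_g), a sterol reductase gene upstream of the brassinosteroids, was lower after all herbicides, with 163.8 ± 9.45 CPM after water, 24.9 ± 3.73 CPM after 2,4-D, 25.1 ± 10.3 CPM after dicamba and 16 ± 4.33 CPM after halauxifen-methyl and log2 fold changes of -2.72 ± 0.13, -2.70 ± 0.27 and -3.36 ± 0.22 (adjusted p = 2.17e-07, 0.000102 and 1.88e-05). The other synthesis genes called after 2,4-D at 6 HAT went both ways. *CPD* (HW_28259_g), a cytochrome P450 of brassinosteroid synthesis, was higher with a log2 fold change of 0.83 ± 0.16 (adjusted p = 0.0036), and a second *DWF1* gene (HW_23475_g) was lower with -0.85 ± 0.12 (adjusted p = 0.00031). In water this *DWF1* gene was higher at 6 than at 1 HAT (log2 value 0.78 ± 0.14, adjusted p = 0.00413). After 2,4-D its means were 265.6 CPM at 1 HAT and 257.7 CPM at 6 HAT. *BEN1* (HW_12650_g), a reductase that lowers brassinosteroid levels in *A. thaliana*, was lower after 2,4-D with -1.70 ± 0.38 (adjusted p = 0.0081), and *BAS1* (HW_12192_g), an inactivating cytochrome P450, was higher after halauxifen-methyl with 1.71 ± 0.49 (adjusted p = 0.0427). *DOGT1* (HW_27249_g), a glucosyltransferase that inactivates brassinosteroids in *A. thaliana*, was higher after 2,4-D and dicamba at 1 HAT (log2 fold changes 2.46 ± 0.47 and 3.00 ± 0.41, adjusted p = 0.0283 and 0.0024) and at 6 HAT (1.56 ± 0.12 and 1.17 ± 0.23, adjusted p = 4.38e-06 and 0.00782).

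Of 22 further receptor and signalling genes, 8 or 9 were tested. At 6 HAT, 2 were higher and 1 lower after 2,4-D, 1 was higher and 0 lower after dicamba and 1 was higher and 1 lower after halauxifen-methyl. These counts of so few genes stand beside the shares over all genes given with the DELLA list. *BSK5* (HW_1778_g), a BR-signalling kinase, was higher after all herbicides (log2 fold changes 1.90 ± 0.40, 1.97 ± 0.35 and 2.65 ± 0.41, adjusted p = 0.00556, 0.00372 and 0.00214), and lower in water at 6 than at 1 HAT (log2 value -1.60 ± 0.32, adjusted p = 0.00706). Of the same kinase family, *BSK1* (HW_32799_g) was higher after 2,4-D (1.88 ± 0.35, adjusted p = 0.00275), and *BSK2* (HW_20729_g) was lower after 2,4-D (-1.19 ± 0.19, adjusted p = 0.00101) and halauxifen-methyl (-0.72 ± 0.18, adjusted p = 0.0222). *BSK1* was also lower in water at 6 than at 1 HAT (log2 value -1.69 ± 0.39, adjusted p = 0.0141). After 2,4-D its means were 14.8 CPM at 1 HAT and 16.8 CPM at 6 HAT. At 1 HAT no gene of this list was called against water. The response list held 8 further genes, of which 6 were tested. At 1 HAT 2 of them were higher after dicamba, *PRE5* (HW_28857_g) and *BEE1* (HW_34467_g), and none was called after the other herbicides. Their log2 fold changes after dicamba were 3.42 ± 0.76 and 1.24 ± 0.28 (adjusted p = 0.0403 and 0.0465). *PRE5* had few reads in water at 1 HAT, with 0.095 to 2.43 CPM. At 6 HAT 2, 2 and 3 of the list were higher and 1 was lower after 2,4-D, dicamba and halauxifen-methyl. *BEE1* (HW_34467_g), a transcription factor gene induced by brassinosteroid in *A. thaliana*, had 27.9 ± 9.65 CPM after water, 215.6 ± 69.6 CPM after 2,4-D, 172.3 ± 40.8 CPM after dicamba and 135.7 ± 19.9 CPM after halauxifen-methyl, with log2 fold changes of 2.95 ± 0.29, 2.64 ± 0.29 and 2.27 ± 0.26 (adjusted p = 3.08e-05, 0.000194 and 0.000304). In water it was lower at 6 than at 1 HAT by a log2 value of -2.02 ± 0.35 (adjusted p = 0.00263). *EXO* (HW_41098_g), which codes for an extracellular protein that promotes leaf growth in *A. thaliana*, was higher after all herbicides by 5.30 ± 0.40, 4.21 ± 0.59 and 4.20 ± 0.57 on the log2 scale (adjusted p = 4.39e-06, 0.000888 and 0.000909), and lower in water at 6 than at 1 HAT (log2 value -2.17 ± 0.60, adjusted p = 0.0327). *TCH4* (HW_19929_g), a cell wall enzyme gene, was higher after halauxifen-methyl (3.43 ± 0.97, adjusted p = 0.0399). At 6 HAT it had 3.89, 1.375, 0.0627 and 0.221 CPM after water and 10.7, 14.99, 29.6 and 6.47 CPM after halauxifen-methyl. With so few reads in water the size of this fold is imprecise. *BIM1* (HW_51415_g), a partner of BES1, was lower after all herbicides by log2 values of -1.43 ± 0.25, -1.10 ± 0.26 and -1.71 ± 0.24 (adjusted p = 0.00165, 0.0215 and 0.00125). The same shares stand beside the counts of the response list, and the genes named from all these lists were picked by their test results.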

How the data were processed

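Leaf RNA from 32 plants (8 groups of 4) was sequenced by the authors. Their processing notes name FastQC 0.11.2, STAR 2.5.2b and HTSeq 0.6.1, without strand or counting mode, and the deposited values are whole-number read counts per gene of the draft genome. How reads shared by near-identical copies were assigned is not given in the sources used here. The members and gene lists were chosen with earlier results of these data known.

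Counts were analysed in R 4.3.3 with edgeR 4.0.16. Genes passed filterByExpr (minimum count 10), libraries were scaled by TMM, and each comparison was tested by the quasi-likelihood F test on its 8 libraries, with Benjamini-Hochberg adjustment over all genes tested and a threshold of 0.05. The change over time was the interaction in 16 libraries. SE is the log2 fold change divided by the square root of F. Gene models hold no UTRs, so lengths are coding lengths. Depth of 12588842 to 29111958 counts sets the precision, and counting limits cover counting error only. The script was tested on simulated data.

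Named are all members called against water at either time and, called or not, the tested members annotated as 3-oxidases, 2-oxidases, BR6OX, BZR1, BAK1 or BES1. *BSL* genes, *EBS1* and the 2 further *BRH1* genes that were not called are named outside this rule, after their values were seen. Replicate numbers in the titles were not taken as pairs, since same-numbered libraries deviated together with r from -0.37 to 0.42 and in 0 of 10 comparisons were all correlations over 0.1. Alternatives were DESeq2 1.42.0, DESeq2 size factors, edgeR's exact test, other filters, 1 fit of all 32 libraries, a replicate block and leaving out each library.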

Additional observations from a re-analysis of the deposited data

Results flagged for a closer look

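Single libraries stood apart from the other 3 of their group in 3 of 126 groups looked at, where chance gives about 1 in 20. *GA3OX1* (HW_38092_g) was at 1.41 CPM in 1 dicamba library at 1 HAT and at 0.0538 CPM or less in the others. *GA2OX8* (HW_9587_g) was at 1.32 CPM in 1 water library at 6 HAT and at 0 in the others. *BRH1* (HW_41642_g) was at 7.03 CPM in 1 2,4-D library at 1 HAT and at 4.31 CPM or less in the others.

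The effect of a herbicide against water differed between 1 and 6 HAT in 14 tests of the interaction (edgeR, adjusted over all genes; log2 of the effect at 6 HAT minus that at 1 HAT). With 2,4-D, *GA3OX1* (HW_38092_g) differed by 8.50 (adjusted p = 0.00128), *AT5G14920* by 2.88 (adjusted p = 8.81e-05), *BSL1* (HW_22012_g) by 1.30 (adjusted p = 0.00284), *BZR1* (HW_17710_g) by 1.28 (adjusted p = 0.000345) and *BRH1* (HW_48496_g) by 0.99 (adjusted p = 0.0115). With dicamba, *GA3OX1* (HW_38092_g) differed by 8.44 (adjusted p = 0.0199), *AT5G14920* by 2.72 (adjusted p = 0.00935), *BRH1* (HW_41642_g) by 2.71 (adjusted p = 0.0374), *BSL1* (HW_22012_g) by 1.32 (adjusted p = 0.00658) and *BZR1* (HW_14475_g) by -1.51 (adjusted p = 0.0254). With halauxifen-methyl, *BRH1* (HW_41642_g) differed by 2.54 (adjusted p = 0.000801), *AT5G14920* by 1.55 (adjusted p = 0.0352), *BSL1* (HW_22012_g) by 1.34 (adjusted p = 0.00579) and *BR6OX2* by -2.04 (adjusted p = 0.000252). The values of *GA3OX1* (HW_38092_g) rest on groups with libraries at or near 0 counts.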

How the results depend on the processing

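Of the 33 calls of single genes against water, none turned its direction under an alternative that gave it a value. Apart from leaving out libraries, 26 were kept under every alternative that gave a value, and 22 were kept with those as well. With at least 10 counts asked of every library, 5 of the 33 calls could not be tested, those of *GA3OX1* (HW_38092_g) after 2,4-D and dicamba, *ATGA2OX1* after 2,4-D and halauxifen-methyl and *GA2OX8* (HW_33615_g) after 2,4-D. Counts of called brassinosteroid genes at 1 HAT depended most on the test. After 2,4-D the count was 1, against 5 with DESeq2, 3 with the exact test and 2 with no low-count filter or all 32 libraries in 1 fit. After dicamba it was 2, against 5 with DESeq2 and 4 with the exact test or all 32 libraries, and after halauxifen-methyl 0, against 1 under DESeq2, the exact test, no filter and the fit of all 32 libraries. With that filter, 2 gibberellin genes were called after 2,4-D at 6 HAT in place of 5, since fewer genes were tested. DESeq2 called 2 gibberellin genes in each herbicide pair and 2 in water over time, against 1 in either pair with 2,4-D, 0 in that of dicamba and halauxifen-methyl and 1 in water, and the exact test called 2 between 2,4-D and dicamba and 2 between dicamba and halauxifen-methyl. The cause of these differences was not tested.

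Leaving out 1 library at a time at 1 HAT gave 1 to 3 called brassinosteroid genes with 2,4-D, 0 to 2 with dicamba and 0 to 1 with halauxifen-methyl, and 0 gibberellin genes throughout. At 6 HAT it gave, for the herbicides in the same order, 4 to 5, 2 to 4 and 1 to 3 gibberellin genes and 6 to 8, 2 to 5 and 6 to 8 brassinosteroid genes.

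With the replicate block, 1 brassinosteroid gene was called after dicamba at 1 HAT and 3 at 6 HAT, in place of 2 and 5. The replicate block gave 0 brassinosteroid genes between 2,4-D and dicamba, 2 gibberellin genes between 2,4-D and halauxifen-methyl and 1 brassinosteroid gene in water over time, in place of 1, 1 and 2. Single calls lost with it were *GA2OX8* and *BRL2* after 2,4-D, *BAK1* after halauxifen-methyl and *GA3OX1* (HW_32323_g), *BRL1*, *BZR1* and, at 1 HAT, *BRH1* (HW_41642_g) after dicamba. The first pair were also lost with no filter and in the fit of all 32 libraries, *BRL2* with DESeq2 size factors and *BAK1* in the fit of all 32 libraries. The interactions were run under 1 setting.

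Depth limits the members with few reads, and many steps of gibberellin synthesis could not be tested.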
